A study of Homo sapiens with 2 samples.

Results

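Peaks of eIF4A1-bound RNA listed under long intergenic noncoding RNA genes (symbols that begin with LINC) and antisense RNA genes (symbols that hold -AS and a digit) are described here. They were chosen by name alone, from the RefSeq symbol of the gene ID in the authors' annotated table. Peaks called distal intergenic and those listed under MYO16-AS1 were left out. The rule gave 67 of the 1919 annotated peaks, at 64 genes: 30 peaks at 29 LINC genes and 37 peaks at 35 antisense genes. The other 1777 peaks not called intergenic serve as the comparison.

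The peaks come from RNA immunoprecipitation and sequencing (RIP-seq) in DU145, an established human prostate cancer cell line. Both groups are DU145 cells, with no treatment named in the labels, and share a cytoplasmic lysate that was divided between a rabbit antibody to eIF4A1 and control rabbit IgG, with 1 library each. No difference between the antibodies therefore has a replicate check, and none was tested here. The −log10 q values printed are the authors' peak-caller values, which compare 1 library with its control and carry no replicate error. Every fold below is the authors' fold over control for that peak, on a linear scale. No peak carries a strand in the authors' tables. Of the 13 cell type markers looked up (epithelial, luminal prostate, stromal and blood), 0 were named for a peak, so the peak list itself does not check the cell type.

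eIF4A1 is the RNA helicase of the cap-binding complex that loads ribosomes onto messenger RNA, and noncoding RNAs are not its textbook substrates. Long noncoding RNAs are transcribed, and often spliced and polyadenylated, like messenger RNA but carry no long reading frame. An antisense RNA gene lies on the opposite strand of a coding gene, over its body or beside its start, so that reads without strand at such a locus can come from either gene.

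The share of these noncoding genes that were named was below that of protein-coding genes and above that of all long noncoding RNA genes. Of 4358 LINC and antisense genes in RefSeq, 64 were named for a peak (1.47%, exact 95% binomial interval 1.13 to 1.87), against 6.83% of protein-coding genes. Over all 18330 RefSeq long noncoding RNA genes, LINC and antisense genes included, it was 0.529% (interval 0.429 to 0.645). How many of the RefSeq genes the authors' annotation could name was not checked, so these shares may rest on unlike gene sets. Within the 4358, the share was 1.25% for LINC genes and 1.71% for antisense genes, and their intervals of 0.840 to 1.79 and 1.20 to 2.38 overlapped. Of the 64 genes, 33 held the summit of their own peak inside their RefSeq span, which is 0.757% of the 4358.

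The letters of a peak could be shown for 2 members, since only these overlap a promoter window in the RefSeq (GRCh38.p14) set at hand. A window runs from 250 bases before a gene start to 50 after it. That set held 49 of the 64 member genes, so windows of the others could not be checked. In both, the peak lies close to the start of the antisense transcript. The summit of ERCC6L2-AS1 is outside its coding partner and that of B4GALT1-AS1 is inside it. Each sequence is written from 5′ to 3′ on the plus strand, with the bases under the peak in capitals.
ERCC6L2-AS1 (chr9:95875441-95875560, upstream of the coding gene): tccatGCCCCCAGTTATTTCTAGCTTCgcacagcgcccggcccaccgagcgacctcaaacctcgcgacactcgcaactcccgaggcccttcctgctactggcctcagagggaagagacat
B4GALT1-AS1 (chr9:33166948-33166977, first bases of the antisense gene): ggaggacTGCCCGATGGCGGCGGCACTGTT
The whole ERCC6L2-AS1 peak of 22 bases is shown. Its summit lies 242 bases upstream of the start of ERCC6L2, a DNA repair helicase gene on the other strand, and inside no coding gene. It had a fold of 4.91 on 4 reads. The B4GALT1-AS1 peak spans 263 bases, of which the first 23 are shown. Its summit lies 113 bases into the antisense gene and also inside B4GALT1, which encodes a Golgi galactosyltransferase, and its fold of 2.99 rested on 2 reads.

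The named gene, which is the one that the table's gene ID gives, often did not hold the summit. By RefSeq span, a summit was inside the named gene in 35 of 67 (52.2%, interval 39.7 to 64.6), against 80.5% of all 1844 peaks not called intergenic. Among the 36 peaks at other long noncoding RNA genes, MYO16-AS1 included, it was 19 (52.8%, interval 35.5 to 69.6). In the promoter class, which the authors set at up to 3 kb from a transcript start, 22 of 25 summits were inside the named gene (88.0%), against 87.8% of the other peaks. Outside that class the share was 13 of 42 (31.0%), against 506 of 703 other peaks (72.0%). The exon, intron and 3′ UTR classes thus held 29 of the 32 members with a summit outside the named gene. These shares were not tested, and the intervals cover counting error only.

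Every summit was then placed against RefSeq gene spans, introns included. In 17 peaks it was inside the named noncoding gene and no coding gene, in 18 inside both, in 19 inside a coding gene but not the named gene, in 10 inside another noncoding gene or pseudogene only, and in 3 inside no RefSeq gene. A coding gene thus held 37 of the 67 summits (55.2%, interval 42.6 to 67.4). It held 92.0% of the summits of the 1777 other peaks, 1655 of which are listed under a coding gene. Among the 36 peaks at other long noncoding RNA genes it held 21 (58.3%, interval 40.8 to 74.5). The kinds differed: a coding gene held 31 of 37 antisense summits (83.8%, interval 68.0 to 93.8) and 6 of 30 LINC summits (20.0%, interval 7.71 to 38.6). Of the 31 antisense summits in a coding gene, 16 lay outside the antisense gene itself. Of the 37 pairs of a peak's noncoding gene and a coding gene at its summit, both strands were known in 32, and 26 of these were on opposite strands.

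**Figure D1:**
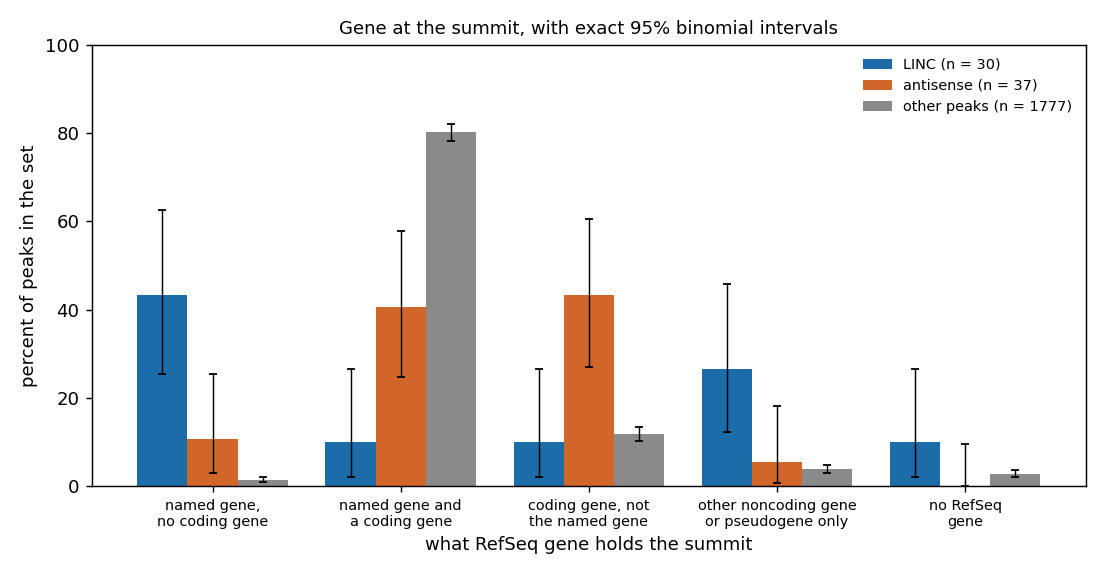
Percent of peaks (y axis) by the RefSeq gene that holds the summit (x axis) for LINC, antisense and all other peaks, with exact 95% binomial intervals as bars. For a peak listed under a coding gene the named gene is itself the coding gene, which is why 80.1% of other peaks fall in the second place. The most frequent place of LINC peaks is the named gene alone (43.3%), and 83.8% of antisense peaks lie in a coding gene, against 92.0% of other peaks.

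In the 17 peaks inside their own gene and no coding gene, the summits of LINC01399 and LINC02899 also lie in pseudogenes, which makes their values uncertain, and that of LINC01476 in another noncoding gene, LOC124904040. The highest was at HOXC-AS1, an antisense gene of the HOXC homeobox cluster (chromosome 12, 53999149 to 53999168), with a fold of 5.80, a −log10 q of 5.55 and 5 reads over a background of 0.0352. Background here is the number of control reads expected at the summit, on the scale of the eIF4A1 library. ERCC6L2-AS1, LENG8-AS1 and LINC01273 shared a fold of 4.91 on 4 reads each. LINC01399 had 4.67 and LINC01128 had 4.52, also on 4 reads.

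LINC-PINT, a noncoding RNA gene known as a target of p53, had a fold of 3.93 on 3 reads (chromosome 7, 131106742 to 131106761), with a −log10 q of 3.15 and a background of 0.0176. Its summit was 193 bases upstream of the listed transcript's start but inside the RefSeq gene. ILRUN-AS1, LINC01976 and LINC02035 had the same fold and read number. LINC02899 and LINC02987 had a fold of 3.80 on 3 reads. LINC00351, LINC00944, LINC01476, LINC02465 and LINC02538 had 2.99 on 2 reads, all but the last in introns.

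Among the 18 peaks inside both the named gene and a coding gene, LINC02210 had the highest fold of all 67 peaks. LINC02210, listed in the file as CRHR1-IT1, had 2 peaks, 11373 bases apart. The stronger (chromosome 17, 45630120 to 45630149) had a fold of 6.88, a −log10 q of 9.08 and 6 reads over a background of 0.0176, which placed it at rank 86 of all 1919 peaks. The other had 3.80, a −log10 q of 1.93 and 3 reads. The coding gene at both is LINC02210-CRHR1, a readthrough locus on the same strand, so the summit does not separate the noncoding gene from the joint transcript.

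IDI2-AS1 had a fold of 6.61, a −log10 q of 4.55 and 7 reads over a background of 0.211 (chromosome 10, 1041278 to 1041328). Its summit lies inside IDI1, on the opposite strand, and the authors' own class places it in exon 5 of 5 of IDI1, the isopentenyl diphosphate isomerase of the isoprenoid and cholesterol pathway. IDI1 itself was named for 0 peaks. The peak therefore stood on the last exon of a coding gene while bearing the name of an antisense gene that runs over it.

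PRKCZ-AS1 had a fold of 5.97, a −log10 q of 9.47 and 5 reads (chromosome 1, 2183404 to 2183425, background 0.00528). It overlaps PRKCZ, encoding an atypical protein kinase C, on the opposite strand. PCBP1-AS1 had the most reads of any of the 67 peaks, 8, but a fold of only 4.79 and a −log10 q of 1.87 (chromosome 2, 70087667 to 70087710). Its background of 0.880 was the highest of the 67 and the only one of at least 0.5. PCBP1, which encodes an abundant poly(C)-binding protein, lies at the same summit on the opposite strand.

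LINC00963, a noncoding RNA studied in prostate cancer, had a fold of 4.68, a −log10 q of 1.75 and 5 reads over a background of 0.281 (chromosome 9, 129504411 to 129504480). A predicted coding gene, LOC124900275, overlaps it. SLC9A3-AS1 had 2 peaks 7014 bases apart, at chromosome 5, 473759 to 473778 and 480779 to 480798. Both had a fold of 3.93, a −log10 q of 3.15 and 3 reads over 0.0176, and both lie inside SLC9A3, the gene of a sodium/hydrogen exchanger. Beyond these, EFCAB14-AS1 had 4.60 on 4 reads, in the 3′ UTR class and inside EFCAB14 on the opposite strand.

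The remaining peaks of this place had 2 or 3 reads. GPRC5D-AS1 had 3.98, inside HEBP1, and NUP153-AS1 and THAP9-AS1 had 3.93 each, inside the nucleoporin gene NUP153 and the COPII coat gene SEC31A. On 2 reads, B4GALT1-AS1 and CELF2-AS2 had 2.99, and ADNP-AS1, FOSL2-AS1 and EPB41L4A-AS1 had 2.95. EPB41L4A-AS1, a small nucleolar RNA host (chromosome 5, 112161072 to 112161208, −log10 q of 1.54, background 0.0176), lies inside EPB41L4A on the opposite strand. TMEM147-AS1 had 2.94, the lowest fold of the 67, inside GAPDHS.

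In 19 peaks the summit lay in a coding gene and outside the noncoding gene that the table's gene ID gives. EHD4-AS1 led with a fold of 5.70, a −log10 q of 4.94 and 5 reads over a background of 0.0528 (chromosome 15, 41919391 to 41919459). It lies inside EHD4, an endocytic recycling gene, 2022 bases upstream of the antisense transcript's start. BOK-AS1 had 4.93 on 4 reads, in the 3′ UTR class inside BOK, a BCL2-family gene. LINC01979 had 4.73 on 4 reads, also in the 3′ UTR class, inside TBC1D16.

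KLF3-AS1 had 2 such peaks 1657 bases apart, both inside KLF3, a Krüppel-like transcription factor gene. The first (chromosome 4, 38688160 to 38688179) had a fold of 3.95, a −log10 q of 3.66 and 3 reads over a background of 0.0123. The second (38689817 to 38689849) had 4.83, a −log10 q of 3.90 and 4 reads over 0.0352, in exon 4 of 4 of a KLF3 transcript. KLF3 was named for 0 peaks, although it held both.

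FOXO6-AS1 had 4.67 on 4 reads in exon 2 of 2 of FOXO6, a forkhead factor gene. On 3 reads each, MAML3-AS1, MAST4-AS1 and TAB3-AS1 had 3.99, VASH1-AS1 had 3.97 inside ANGEL1, and STARD4-AS1 had 3.93. The last lies in the 3′ UTR class inside STARD4, a sterol transport gene, 10505 bases from the antisense transcript's start. On 2 reads, AFF1-AS1 (inside C4orf36), CACNA1B-AS2, CDH18-AS1, ELOVL2-AS1 and LINC01570 (inside RBFOX1) had 2.99. The file's own name for the AFF1-AS1 peak is C4orf36. COL4A2-AS1 and ZNF497-AS1 also had 2.99, and LINC03122 had 2.95 in exon 11 of 14 of ZSWIM6.

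In all, 34 coding genes held a summit of the 67 peaks, and 4 of them held a further peak outside this set (11.8%, interval 3.30 to 27.5). Of all 20056 protein-coding genes, 6.83% held such a peak, a share inside that interval. FOSL2, an AP-1 factor gene, held a peak named for itself with a fold of 5.62 on 6 reads, above the 2.95 of the FOSL2-AS1 peak. TBC1D16 held 1 more at 3.92, SEC31A 1 more at 3.93 and LINC02210-CRHR1 1 more at 2.99. Of the 35 antisense genes, 34 have a coding partner by symbol. The partner held the summit for 23 of them and was itself named for a peak in 3 of 34 (8.82%, interval 1.86 to 23.7), namely FOSL2, LENG8 (3.92) and ZNF205 (3.97). The share of 6.83% of protein-coding genes named lies inside this interval too.

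The 10 peaks in another noncoding gene or a pseudogene only held 5 of the 10 highest folds of the set. LINC01037 had a fold of 6.61, a −log10 q of 4.55 and 7 reads over a background of 0.211 (chromosome 1, 187563744 to 187563849). Its summit lies 256254 bases from the start of the listed transcript, inside the pseudogene FDPSP1 (187563027 to 187564175). LINC01851 had 5.62, a −log10 q of 3.15 and 6 reads over 0.246 (chromosome 2, 77792892 to 77792954), inside RPL38P2. LINC01375 had 5.51, a −log10 q of 3.84 and 5 reads over 0.0880 (chromosome 10, 89978763 to 89978955), inside SNRPD2P1. LINC01506 had 4.99, a −log10 q of 8.02 and 4 reads over 0.00298 (chromosome 9, 68609123 to 68609143), inside LOC347097. The summits of LINC01851 and LINC01506 also lie in the noncoding genes LOC101927967 and TMEM252-DT, in that order.

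The remaining member with a high value was ZNF205-AS1, whose −log10 q of 10.5 was the highest of the 67. Its fold was 5.98 on 5 reads over a background of 0.00352 (chromosome 16, 3107345 to 3107368), and its summit lies in the noncoding gene LOC124903629. LINC02901 had 3.99 on 3 reads inside YKT6P1. LINC01139, LINC02055, LINC02315 and KCNMB2-AS1 had 2.99 on 2 reads each. The authors' class places the KCNMB2-AS1 summit in an intron of ZMAT3. No RefSeq gene held the summits of LINC00908, LINC01289 and LINC02622, which also had 2.99 on 2 reads. For LINC02055 and LINC01289, the authors' class instead places the summit in an intron of the named gene itself.

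**Figure D2:**
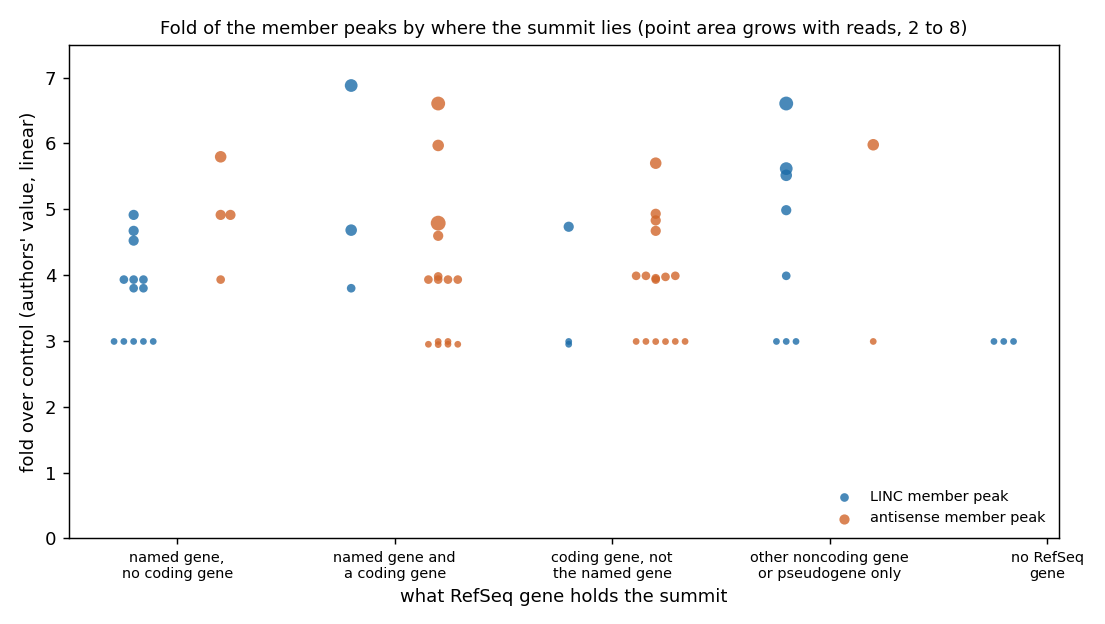
Fold over control (y axis, linear, the authors' values) of each of the 67 peaks by the RefSeq gene that holds its summit (x axis). Each point is 1 peak, blue for LINC and orange for antisense genes, with an area that grows with the reads at the summit (2 to 8). Peaks of 2 reads lie just under 3 and peaks of 3 reads just under 4, while PCBP1-AS1, with 8 reads over the highest background, lies at 4.79.

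Pseudogenes are gene copies that have lost their function, and those that arose from messenger RNA resemble its coding parent closely. A summit lay inside a pseudogene in 8 of the 67 peaks (11.9%, interval 5.30 to 22.2), against 4.16% of the other peaks (interval 3.28 to 5.20). For LINC peaks the count was 7 of 30 (23.3%, interval 9.93 to 42.3), and for antisense peaks 1 of 37 (2.70%, interval 0.0684 to 14.2). Among the 36 peaks at other long noncoding RNA genes it was 2 (5.56%, interval 0.680 to 18.7). That last interval overlaps the interval of the 67. Besides FDPSP1, RPL38P2, SNRPD2P1, LOC347097 and YKT6P1, the pseudogenes were COX7BP1 at LINC01399, AKTIPP2 with the overlapping LOC503540 at LINC02899, and ARPC1AP4 at AFF1-AS1. Of the 18 exon-class members, 5 were in exon 1 of 1, and all 5 lay inside a pseudogene.

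The symbols give 7 coding parents, and 1 of them, FDPS, had peaks of its own. FDPS encodes farnesyl diphosphate synthase, an enzyme just downstream of IDI1 in isoprenoid synthesis. It held 2 peaks, with folds of 5.43 on 5 reads and 2.94 on 2 reads, against 6.61 on 7 reads at FDPSP1. RPL38, SNRPD2, COX7B, YKT6, AKTIP and ARPC1A held 0 peaks. How closely each pseudogene resembles its parent was not measured. The sources used here do not say how reads that map to several places were assigned, so values at these pseudogenes are uncertain.

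By annotation class, introns were more frequent and promoters less frequent than in the comparison peaks. The intron class held 19 of 67 (28.4%, interval 18.0 to 40.7), against 4.28% of other peaks (interval 3.38 to 5.32), and these intervals do not overlap. The share was 10 of 30 for LINC and 9 of 37 for antisense peaks. The promoter class held 25 of 67 (37.3%, interval 25.8 to 50.0), against 60.4% (interval 58.1 to 62.7), again with no overlap. Exons held 18 (26.9% against 20.6%) and 3′ UTRs held 5 (7.46% against 13.4%), both with overlapping intervals. Among the 36 peaks at other long noncoding RNA genes, introns held 13.9% (interval 4.67 to 29.5) and promoters 44.4% (interval 27.9 to 61.9). Both of these intervals overlap those of the 67 peaks. Since 3′ UTRs belong to coding transcripts, the 5 peaks of that class stood on a coding transcript by the authors' own call.

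The class also names a transcript that overlaps the summit. Without strand it does not say which RNA was bound. Of the 19 intron-class peaks, 9 lay in an intron of a coding gene and 6 in an intron of the noncoding gene named. The coding genes were CELF2, RBFOX1, ZMAT3, KLF3, MAML3, CDH18, MAST4, ELOVL2 and CACNA1B. Of the 18 exon-class peaks, 5 lay in an exon of a coding gene (IDI1, COL4A2, KLF3, FOXO6 and ZSWIM6) and 4 in an exon of the noncoding gene named (GPRC5D-AS1, LINC02538, LINC02987 and TMEM147-AS1). The table gave no gene ID for the transcript of the remaining 9.

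**Figure D3:**
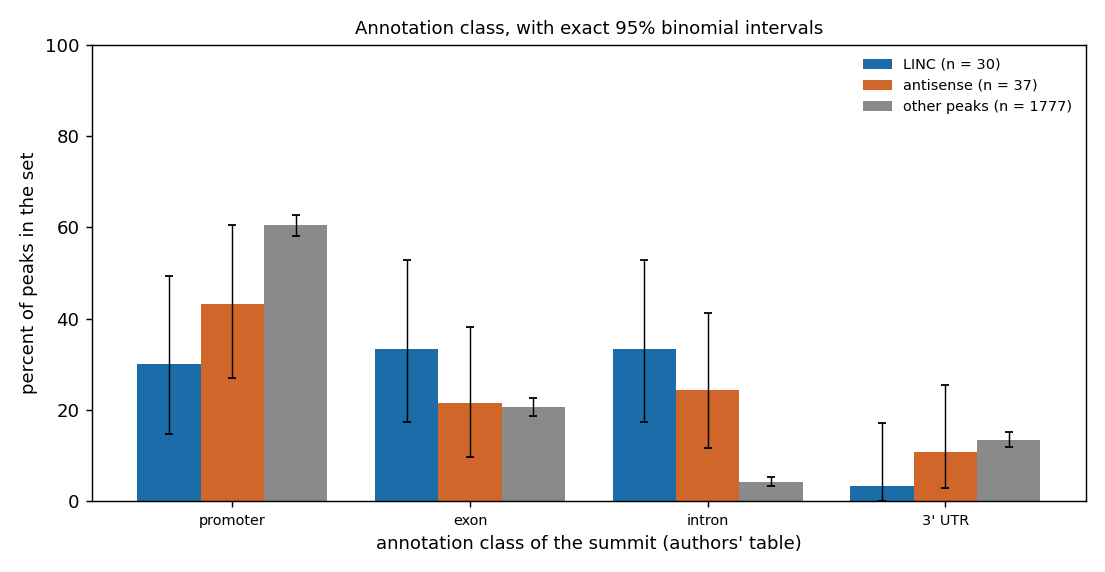
Percent of peaks (y axis) in the promoter, exon, intron and 3′ UTR classes of the authors' table (x axis) for LINC, antisense and other peaks, with exact 95% binomial intervals as bars. Introns hold 33.3% of LINC and 24.3% of antisense peaks against 4.28% of other peaks.

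Read support was low. The reads stacked at each summit were solved for from the authors' fold and −log10 p. Of the 67 peaks, 26 rested on 2 reads (38.8%, interval 27.1 to 51.5), against 16.8% of other peaks (interval 15.1 to 18.6). Among the 36 peaks at other long noncoding RNA genes the share was 19.4%, with an interval of 8.19 to 36.0 that overlaps that of the 67. A minimum of 5 reads was met by 11 peaks (16.4%, interval 8.49 to 27.5), against 27.4% of all 1844. A minimum of 10 was met by 0 of 67 (exact interval 0 to 5.36%, while the limit of 3 counts that a count of 0 allows is 4.48%), against 4.73% of other peaks, a share inside the exact interval. Of the 11 peaks, 6 were in the promoter class (LINC02210, PRKCZ-AS1, HOXC-AS1, EHD4-AS1, PCBP1-AS1 and LINC00963), 4 in exons (IDI2-AS1, LINC01037, LINC01851 and LINC01375) and 1, ZNF205-AS1, in an intron. A peak of 2 reads has an exact 95% Poisson interval of 0.242 to 7.22 reads and a peak of 8 reads one of 3.45 to 15.8. These intervals overlap, so an order of the 67 peaks by reads was not detectable at this depth.

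Low support and the intron class went together. Of the 19 intron-class peaks 15 had 2 reads, including all 10 LINC peaks there, against 46 of 76 other intron peaks (60.5%). In the promoter class 5 of 25 had 2 reads (20.0%), against 15.0% of other promoter peaks, and in exons 6 of 18 (33.3%), against 15.6%. In each of these classes the members' interval overlapped that of the other peaks. Of the 26 peaks on 2 reads, 19 had the same fold, 2.99, and a background of 0.00298, the lowest of any peak in the table. That lowest background was found at 24 of 67 peaks (35.8%, interval 24.5 to 48.5), against 13.3% of other peaks. Among the 36 peaks at other long noncoding RNA genes it was found at 4 (11.1%, interval 3.11 to 26.1), and this interval overlaps that of the 67. At a shared background the fold follows the number of reads alone.

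**Figure D4:**
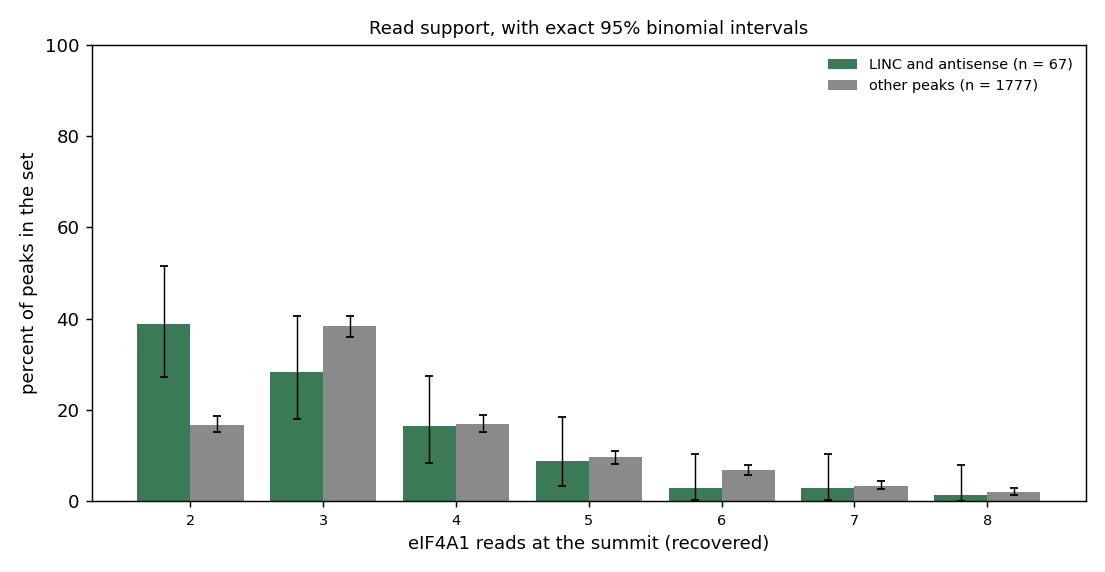
Percent of peaks (y axis) by eIF4A1 reads at the summit (x axis, 2 to 8 reads) for the 67 LINC and antisense peaks and for the other peaks, with exact 95% binomial intervals as bars. The most frequent value is 2 reads for the former (38.8%) and 3 reads for the latter (38.3%).

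The fold depends on the reads and on the background. It ranged from 2.94 to 6.88 with a median of 3.93 (binomial interval of the median 2.99 to 3.99), against 3.99 for other peaks, which reached 13.3. A fold of at least 5 was found at 9 of 67 peaks (13.4%, interval 6.33 to 24.0), where 23.1% of all 1844 reached it. A −log10 q of at least 5 was found at 13 (19.4%, interval 10.8 to 30.9), where 26.6% of all reached it. Both shares are below the background, with intervals that include it. LINC and antisense peaks had medians of 3.80 and 3.93, and their intervals of 2.99 to 4.52 and 2.99 to 3.99 overlapped. The median peak was 20 bases long, against 29 for other peaks, and 38 of 67 had exactly that length.

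Lists of noncoding RNAs and of small nucleolar RNA host genes were examined, all written with earlier results known. Of 50 well-studied noncoding RNAs 4 were named for a peak (8%, interval 2.22 to 19.2): LINC-PINT, LINC00963, EPB41L4A-AS1 and HOTTIP, the last outside the name rule. The summit listed under HOTTIP lay outside that gene and inside the coding gene HOXA13. A further gene of that list, HIF1A-AS1, held a summit that the table lists under another gene. Of 24 small nucleolar RNA host genes, which include the coding gene TAF1D, 1 was named, EPB41L4A-AS1 (4.17%, interval 0.105 to 21.1). Of 15 prostate noncoding RNAs found in RefSeq 1 was named, PCAT6, which the name rule does not take (6.67%, interval 0.169 to 31.9). Over all 18330 RefSeq long noncoding RNA genes, which do not include TAF1D, the share named was 0.529%, with the limit on gene sets given above.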

How the data were processed

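Peaks were called in the eIF4A1 library over a control; every peak name carries that library's name. The submitters' processing notes list, without role or version, MACS2, ChIPseeker, BWA, STAR, Salmon, Picard and DESeq2, and the builds hg19, GRCh38 and hg38. The sources used here do not say which library was the control, how deep the libraries were or how duplicates were treated. The deposited track, filed under the IgG sample, holds a linear fold, −log10 p, −log10 q and a score of 10 times −log10 q cut to a whole number, per the file headers and column order. The deposited annotated table holds summit, class, gene ID and −log10 q. Both were joined by peak name (1919 of 1919 summits equal).

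Symbols came from RefSeq (GRCh38.p14) by gene ID, found for 1918 peaks. The file's own name equalled the symbol in 17 members, differed in 28 and was blank in 22. Coordinates are hg38, 1-based, and summits were placed in RefSeq gene spans.

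Reads k and background b were solved from fold = (k + 1)/(b + 1) and the Poisson p of more than k reads. All solutions lay within 0.00046 of a whole number, and 100% of 499 simulated peaks were recovered. Intervals cover counting error only, since reads are not counted molecules. Python 3.11.15 with scipy 1.17.1 was used, and no test was run.

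Members and lists were chosen with earlier results of these data known. Every member gene is named, with full values for the 10 highest folds, peaks of at least 5 reads, genes with 2 peaks and the well-studied list.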

Additional observations from a re-analysis of the deposited data

Results flagged for a closer look

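The peak listed under LINC02091 is called distal intergenic and so is outside the 67 peaks, but its summit carried 4 reads, more than the 3 that a count of 0 allows. The exact Poisson interval of 4 reads, 1.09 to 10.2, includes 3, and 22 of the 67 peaks had at least 4 reads, so the peak does not stand apart from them. Its fold was 4.83, its −log10 q 3.90 and its background 0.0352 (chromosome 17, 201557 to 201649). RefSeq places the summit inside the long noncoding RNA gene LOC101929774, 9976 bases upstream of the start of the listed transcript.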

How the results depend on the processing

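Of 88 values (8 results under 11 settings, 3 of these chosen after seeing the data), 63 stayed within their interval or within 1.5 times of the reported count and 25 moved. Keeping intergenic peaks or MYO16-AS1, adding divergent, intronic and overlapping transcript genes, taking placed chromosomes alone and leaving out summits in pseudogenes moved none of the 8. At a −log10 q of at least 5 there were 13 peaks at 13 genes (0.298% of RefSeq genes of these names), with a median fold of 4.91 and 30.8% at a fold of at least 5. With at least 5 reads there were 11 peaks at 11 genes (0.252%), a median fold of 5.80, 81.8% at a fold of at least 5 and 54.5% in the promoter class. Without the promoter class there were 42 peaks at 41 genes (0.941%), 31.0% inside the named gene and, by construction, 0% in the promoter class. When the peaks were those inside a RefSeq gene of such a name, 100% were inside it by construction and 62.2% were in the promoter class; the cause of the latter was not tested. Leaving out peaks of 2 reads, chosen after seeing the data, gave 41 peaks at 38 genes (0.872%) with a median fold of 4.60. The names in the file in place of RefSeq symbols, also chosen later, gave 27 peaks at 25 genes (0.574%), since many members have another or no name there. The stricter settings hold fewer peaks by construction. Because the fold grows with the reads, a minimum of reads also raises the median fold and the share at a fold of at least 5. No paired analysis was possible because there is 1 library per antibody, and for the same reason no replicate could be left out. Depth limits every value, as no member had more than 8 reads.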

Other observations

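Long noncoding RNA genes of other name types held 34 peaks at 32 genes outside the name rule, without MYO16-AS1. Their median fold was 3.96, 7 rested on 2 reads and 7 on at least 5, and 5 were in introns. The summit was inside the named gene in 19. The highest were LOC105371789, which overlaps HDAC5 (10.8 on 10 reads), OLMALINC, inside no coding gene (6.91 on 7 reads), and LOC101927178, which overlaps FAM177A1 (6.61 on 7 reads).

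In all, 12 further peaks listed under LINC genes are called distal intergenic. Of these, 10 had a fold of 2.99 on 2 reads, LINC02485 had 3.99 on 3 reads, and 2 of the 12 summits lie inside a long noncoding RNA gene other than the one listed.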
